A study of Bos taurus with 6 samples.

Results

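The 3 control embryos of a study of 6 single bovine morulae are described here, 1 transcriptome per embryo, without reference to the treated embryos. They are the libraries titled as controls, and they make up 3 of 6 libraries in the series. All 3 were produced by in vitro fertilization, cultured in modified synthetic oviduct fluid with bovine serum albumin under 5% oxygen, and exposed to 0.1% dimethyl sulfoxide (DMSO). DMSO is the solvent of the inhibitor given to the other group. Exposure ran from 72 h after insemination, when embryos had reached the 8-16 cell stage, to 144 h on day 6. Each library was made from polyA RNA of 1 morula with a full-length kit for low input. No untreated embryo without DMSO is among the samples, and the labels do not say whether the 3 embryos came from separate cultures, so every SD below measures the spread between these 3 embryos. With a single group there is no test, and all values are descriptions.

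A morula is the compacted ball of cells that precedes the blastocyst. Its outer cells polarise, seal to each other through tight junctions and begin to form the trophectoderm, the later placental epithelium, while the inner cells keep the pluripotency factors of the inner cell mass. In cattle the embryonic genome takes over from stored maternal RNA around the stage at which exposure began. By day 6 most transcripts are therefore thought to be the embryo's own.

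Expression is given in FPKM, mapped fragments scaled to transcript length and sequencing depth, so a level per length. Values of rows that carry the same gene symbol were added, and rows that name several genes at once were left out. The whole-fragment steps in the files put the depth of controls 1, 2 and 3 at 56500000, 53400000 and 59900000 fragments. Of 13659 gene symbols seen in any of the 3 embryos, 13412 had a row in all of them, and these are the genes described. The 247 others lacked a row of their own in some embryo, where each shared a row with a neighbouring gene, so some abundant genes are not analysed here. NDUFC1, a subunit of complex I, was at 4130 FPKM in control 1 and 5119.5 FPKM in control 3 and had no row of its own in control 2. An FPKM lay outside its own deposited confidence bounds in 8.997% to 10.1% of named rows. Each of the 30 most abundant genes was among them in some embryo. The same held for 48.4% of genes with a mean of at least 10 FPKM.

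Transcripts of the 5 marker genes were present in all 3 embryos. POU5F1, the central pluripotency factor (chromosome 23, 27769800 to 27774599, bosTau8), was at 312, 431 and 341 FPKM in controls 1, 2 and 3. SOX2, its partner on DNA (chromosome 1, 85932323 to 85934874), was at 41.5, 27.6 and 32.1 FPKM. DPPA3, a maternal factor that protects the early genome from changes in methylation and is also made by pluripotent cells (chromosome 5, 101791824 to 101799616), was at 856, 661 and 881 FPKM. These 3 genes differed by at most 1.49-fold between embryos, here and below on the scale of FPKM + 1. The other markers did not behave alike. GATA3, a trophectoderm transcription factor (chromosome 13, 15982437 to 16002940), was at 13.7, 6.50 and 83.4 FPKM, and KRT8, a keratin of simple epithelia (chromosome 5, 27213669 to 27221185), was at 81.4, 4.49 and 400.5 FPKM. Control 3 was the highest and control 2 the lowest embryo for both.

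Markers of other cells that a culture drop could hold were mostly low or absent. Of 18 cumulus and granulosa genes, which mark the somatic cells around the oocyte, 2 reached 1 FPKM in all 3 embryos, where 47.8% of all genes did, and their summed level was 62.3 to 130.02 FPKM. Most of that sum was SERPINE2, a protease inhibitor, at 122, 92.9 and 53.9 FPKM. Several genes of these cells were near 0, with VIM at 0.0109, 0.501 and 0 FPKM and FSHR, PTX3, FST and GREM1 at 0 in every embryo. DCN and LUM, matrix proteins of somatic cells, were at 0.730, 11.002 and 0 FPKM and at 0.739, 4.81 and 0.0212 FPKM, so they were highest in control 2. COL1A2, a collagen gene of the same list, was lowest there, at 4.29, 0.231 and 4.06 FPKM. Sperm genes summed to 6.01 to 16.5 FPKM over 10 symbols, of which 2 reached 1 FPKM in all 3 embryos. Blood genes summed to 71.1 to 141.03 FPKM over 8 symbols, nearly all of it HBA, while HBB, PTPRC and CD3E were at 0 or below 0.01 FPKM. Of the 8, 3 (37.5%) reached 1 FPKM in all 3 embryos, beside the 47.8% of all genes. After HBA came CD68 at 6.84, 2.71 and 4.63 FPKM and ALAS2 at 1.40, 2.01 and 3.38 FPKM. The HBA locus also differed in length between assemblies.

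Of the 13412 genes, 6412 (47.8%) were at 1 FPKM or more in all 3 embryos. The count per embryo was 7311, 7141 and 7324. At least 10 FPKM was reached in all 3 by 3458 genes, 100 FPKM by 979 and 1000 FPKM by 158. At the other end, 2848 symbols were listed at 0 in all 3 embryos. The median gene had a mean of 1.86 FPKM. Symbols were matched to RefSeq names for 13262 genes. Of these 12485 are protein-coding, and 6346 of them were at 1 FPKM or more in all 3 embryos, against 1 of 747 microRNA genes. Mature microRNAs carry no polyA tail, and a polyA library does not measure them.

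A small number of genes made up a large part of the FPKM. The 10 most abundant genes held 11.1% ± 0.976 of the summed FPKM (SD, n = 3), the first 30 held 21.2% and the first 100 held 40.0% ± 0.520. 50% of the sum lay in 164, 159 and 157 genes in controls 1, 2 and 3. The ranking was largely shared: 21 of 30 genes were among the first 30 in every embryo, and 75 of 100 were among the first 100.

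Both genes at the top encode beta-thymosins, small proteins that bind actin monomers. TMSB10 (chromosome 11, 49933204 to 49934214) was at 17271, 18047 and 22574 FPKM, and TMSB4X (chromosome X, 140973702 to 140975750) was at 14587, 17841 and 22022 FPKM. Both were highest in control 3 and lowest in control 1. ACTB, the cytoplasmic actin that thymosins hold, was at 4576, 2592 and 4886 FPKM, lower in control 2 than in the others. CALM2 (chromosome 11, 29424685 to 29437611), 1 of the genes for the calcium sensor calmodulin, followed the thymosins at 8637, 9181 and 10728 FPKM. Beta-thymosins and calmodulins have near-identical copies elsewhere in the genome, and the authors' assignment of reads between copies is not given in the sources used here.

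Regulators of protein turnover and the cell cycle were also in the first 30. SKP1, the adaptor of SCF ubiquitin ligases (chromosome 7, 47389342 to 47401412), was at 6197, 10250.4 and 5638 FPKM and stood higher in control 2. UBB, a polyubiquitin gene (chromosome 19, 33853788 to 33855685), was at 7104, 7603 and 6229 FPKM. UBL5, a ubiquitin-like protein that works in splicing, was at 3467, 5009 and 3087 FPKM, again highest in control 2. MYEOV2 (now COPS9), a subunit of the COP9 signalosome that acts on the same ligases, was at 3645, 3788 and 4620.4 FPKM. CKS2, a small subunit of cyclin-dependent kinases (chromosome 8, 90300716 to 90305611), was at 5149.7, 5839 and 4072 FPKM, above every cyclin and kinase on the cell cycle list. PPIA, the peptidyl-prolyl isomerase cyclophilin A, was at 6271, 7084 and 8188 FPKM. SEC61G, of the channel through which proteins enter the endoplasmic reticulum, was at 6298, 3886 and 6169 FPKM.

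The remaining genes of the first 30 were, with the exception of TMA7, parts of the ribosome or the respiratory chain. Ribosomal proteins or their fusions held 7 places. They were RPS29 at 7289 ± 378 FPKM, RPS25 at 6544 ± 1559 FPKM, RPL39 at 5695 ± 1132 FPKM, RPS27A at 5681 ± 260.4 FPKM, FAU at 4457 ± 938 FPKM, RPL27 at 4286 ± 379 FPKM and RPL35A at 4157 ± 854 FPKM (mean ± SD, n = 3). RPS27A and FAU each encode a ribosomal protein joined to ubiquitin or a ubiquitin-like protein. Respiratory chain and ATP synthase genes held 11 places. They were led by USMG5 (now ATP5MK), a small ATP synthase subunit, at 8662, 8549 and 8959 FPKM, and by NDUFB1, an accessory subunit of complex I, at 7247, 7417 and 9276 FPKM. CYCS, the electron carrier cytochrome c, was at 4786, 4652 and 6207 FPKM. COX7A2 and COX5B of cytochrome c oxidase were at 6488 ± 656 FPKM and 4287 ± 1059.9 FPKM.

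**Figure D1:**
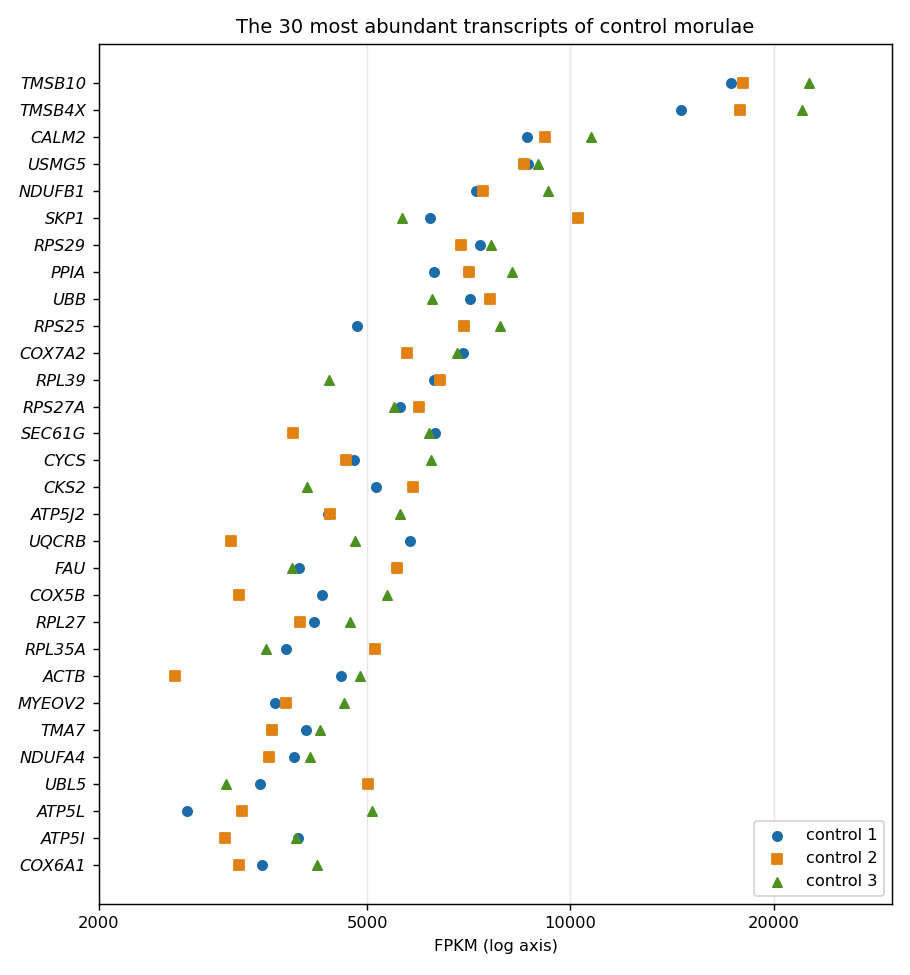
FPKM of the 30 genes with the highest mean over the control embryos, on a log axis, with 1 point per embryo and genes ordered by mean. TMSB10 and TMSB4X sit above all other genes, and for most genes the 3 points lie close together, with SKP1, ACTB and UQCRB among those that spread.

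The order within the first 30 depends on which deposited value is read. All 30 had an FPKM outside their own bounds in at least 1 embryo. When the midpoint of the bounds was used in place of the FPKM, 20 of the 30 genes and 72 of the first 100 were the same. The midpoint is itself uncertain for some genes, since NANP, at a mean of 93.4 FPKM, had a midpoint of 4541 FPKM and CCBL1, at 15.2 FPKM, one of 5019 FPKM. TMSB10 kept the first place, with an FPKM 0.982 times its midpoint. NDUFB1 was at 4.44 times its midpoint, ATP5I (now ATP5ME) 3.39 times, RPL39 2.60 times and RPL35A 2.12 times. The levels of these 4 genes are the less certain ones, and the cause of the gap was not tested.

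Sorting the genes into 32 functional lists placed 59.0%, 59.0% and 59.4% of the summed FPKM in a named class. The 4 largest classes alone held 38.5%, 38.1% and 39.5%. They were the cytosolic ribosome, the respiratory chain encoded in the nucleus, the cytoskeleton and the spliceosome. The 12385 genes in no list held 40.9%, with a median level of 1.34 FPKM.

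The machinery of protein synthesis was the largest of these. Cytosolic ribosomal proteins, the structural proteins of the ribosome, held 16.6%, 17.5% and 15.2% of the FPKM (16.4% ± 1.14, SD, n = 3). Of 81 symbols, 79 reached 1 FPKM in all 3 embryos, a share of 97.5% beside the 47.8% of all genes, and their median level was 1535 FPKM. Processed copies of these genes are frequent in mammalian genomes, so the level of a single member is uncertain. Translation factors, which start, extend and end protein chains, held 2.45% ± 0.208. Their leading members were NACA, which binds new chains on the ribosome, at 2111, 2774 and 2121 FPKM, the initiation factor EIF1AX at 2331, 2253 and 2160.5 FPKM and the elongation factor EEF1A1 at 1993, 1273 and 1709 FPKM. Of 53 with a mean of at least 10 FPKM, 29 were highest in control 2, beside 36.5% of all genes, with a median log2 difference of 0.18 from the mean of the others. It was 0.12 without control 1, 0.068 with no filter on low values and 0.028 among members with every FPKM inside its bounds. Aminoacyl-tRNA synthetases, which charge transfer RNAs, held 0.213% ± 0.0119. Their highest member was AIMP1, a scaffold of the synthetase complex, at 487, 536 and 451 FPKM.

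Mitochondrial energy production came next. The 81 nuclear-encoded respiratory chain genes held 13.3%, 11.8% and 14.5% of the FPKM (13.2% ± 1.39), with a median level of 798.2 FPKM. Control 2 was the lowest embryo for the class sum and for 58 of the 75 members with a mean of at least 10 FPKM. Over all 4110 such genes control 2 was the lowest for 38.4%. The mitochondrial ribosome, which translates the subunits encoded in the organelle, was the steadiest class by share, at 2.01% ± 0.00791. MRPS18C led it at 1576, 1959 and 1801 FPKM. Subunits encoded by the mitochondrial genome itself are not analysed here. Enzymes of the tricarboxylic acid cycle held 0.356% ± 0.0432, led by MDH1, a malate dehydrogenase, at 889.7, 699 and 819.7 FPKM and by CS, citrate synthase, at 558, 493 and 305 FPKM. Glycolysis enzymes held 0.204% ± 0.0176. The lactate dehydrogenase subunit LDHB was at 641, 668 and 651 FPKM, and the other subunit, LDHA, was at 43.97, 42.1 and 154 FPKM. GAPDH, often used to scale expression in other tissues, was at 165, 205 and 185 FPKM, about the level of PGK1 at 185, 249.7 and 211 FPKM. PKM, the pyruvate kinase gene, was at 10.3, 13.8 and 12.6 FPKM.

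**Figure D2:**
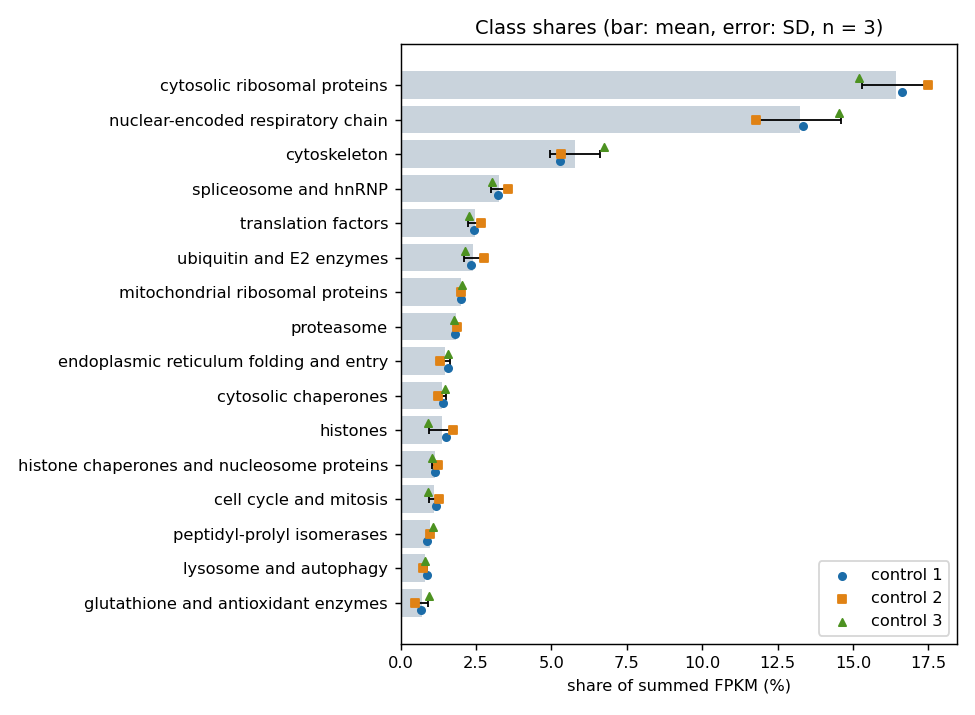
Percent of the summed FPKM held by the 16 functional classes with the highest mean share, on a linear axis, with bars for the mean, error bars for the SD over 3 embryos and 1 point per control embryo. Cytosolic ribosomal proteins (15.2% to 17.5%) and the respiratory chain (11.8% to 14.5%) stand above the other classes, and for the cytoskeleton control 3 lies above the other embryos.

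The cytoskeleton list held 5.77% ± 0.836, most of it the beta-thymosins, and its highest share, 6.74%, was in control 3. RNA processing followed. Spliceosome and hnRNP genes held 3.27% ± 0.277, and 68 of 70 were at 1 FPKM or more in all embryos. SNRPE and SNRPD3, of the ring that surrounds spliceosomal RNAs, were at 2963 ± 188 FPKM and 2263 ± 174 FPKM. SNRPF, of the same ring, was the widest member at 1199, 1825 and 339 FPKM, lowest in control 3. Protein breakdown took a similar share. The proteasome held 1.82% ± 0.0357, and the list of ubiquitin and E2 conjugating enzymes held 2.41% ± 0.326. SKP1, which is neither, was the highest member of that list, at 6197, 10250.4 and 5638 FPKM. Among proteasome genes PSMA6, PSMA2 and PSMA3 of the core ring were at 1239.9 ± 240.3 FPKM, 1239.6 ± 294 FPKM and 1214 ± 114 FPKM. PSME1, a subunit of the interferon-inducible activator, was at 49.2, 52.8 and 324 FPKM, so control 3 stood apart. Cytosolic chaperones held 1.38% ± 0.12. The mitochondrial co-chaperonin HSPE1 was their highest member at 3405, 1116 and 3572 FPKM, lower in control 2. Proteins for folding in and entry into the endoplasmic reticulum held 1.48% ± 0.141.

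Genes of chromatin and division were expressed broadly. Histones held 1.38% ± 0.431. The replacement histones, which are made outside DNA replication and from messages with polyA tails, were the most abundant, with H3F3B at 3479, 4780.4 and 2142 FPKM, H2AFZ (now H2AZ1) at 2563, 2704 and 2590.2 FPKM and H3F3A (now H3-3A) at 1919, 1958 and 1759.8 FPKM. H2AFZ and H3F3A differed by no more than 1.11-fold between embryos. HMGB1, HMGN2 and NPM1, which bind or load nucleosomes, were at 1950.4 ± 125 FPKM, 1833 ± 323 FPKM and 1956 ± 639 FPKM. Cell cycle genes held 1.12% ± 0.181. After CKS2 came PTTG1, the securin that guards chromosome separation, at 1151, 1196 and 887 FPKM, then CKS1B at 978, 1251 and 953 FPKM and the E2 enzyme of the anaphase-promoting complex, UBE2C, at 1059.5, 1054 and 913 FPKM. Among cyclins, CCNB1 was at 444, 433 and 328 FPKM and CCNA2 at 161, 117 and 107 FPKM, while the D-type cyclin CCND1 was listed at 0 in every embryo. In the DNA replication list GMNN, geminin, which blocks relicensing, was the highest at 1278, 918 and 1227 FPKM.

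Several other classes were small but held a few abundant genes. FABP3, a fatty acid carrier, was at 2931, 3015 and 3495 FPKM and made up most of the lipid and sterol class of 0.462% ± 0.0327. PLIN2, which coats lipid droplets, was at 224, 183 and 125 FPKM. Among antioxidant enzymes, PRDX2, a peroxiredoxin, was at 2002, 1394 and 2180.4 FPKM. In the lysosome and autophagy class the proton pump subunit ATP6V1G1 was at 1141, 1366 and 1250.3 FPKM and GABARAPL2, of the autophagosome membrane, at 847, 882 and 874 FPKM. In the methionine cycle, MAT2A, which makes S-adenosylmethionine, was at 74.8, 79.2 and 74.2 FPKM, and its regulatory partner MAT2B was at 75.1, 88.4 and 79.9 FPKM. OAZ1, which restrains polyamine synthesis, and ODC1, the enzyme it binds, were at 617, 457 and 629.9 FPKM and at 266, 163 and 539 FPKM. DNA methylation genes were low: DNMT1, the maintenance enzyme, was at 5.79, 3.96 and 2.995 FPKM, and its targeting partner UHRF1 at 7.04, 5.53 and 5.29 FPKM. Of 17 imprinted genes found, GNAS, a G protein subunit, was the highest at 234, 145 and 288 FPKM, and H19, DLK1 and SGCE were listed at 0 in every embryo. SYCP3, a protein of the meiotic chromosome axis, was at 183, 295 and 186 FPKM, with MAEL and ASZ1, of transposon silencing in the germline, at 43.8 ± 12.2 FPKM and 34.7 ± 5.07 FPKM.

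Signalling and cell death genes held small shares. The 31 growth and morphogen genes held 0.0256% ± 0.00257 together, and 17 were at 1 FPKM or more in all embryos, near the 47.8% of all genes. WWTR1, the Hippo pathway coactivator TAZ, was the highest at 64.03, 54.5 and 45.8 FPKM. NODAL and WNT5A were at 0 in every embryo, and FGF4 was at 1.42, 0 and 0.235 FPKM. CASP6 was the highest gene of the apoptosis list at 190.02, 222 and 204 FPKM, and BCL2 was at 0.

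The spread of a gene between the 3 embryos depended on its level. Among the 4110 genes with a mean of at least 10 FPKM, the median SD of log2(FPKM + 1) was 0.32 and the median coefficient of variation (CV) was 22.9%. The highest and lowest embryo were within 1.5-fold for 1924 genes (46.8%) and differed by over 4-fold for 235 (5.72%). Of those 235 genes, 30 were listed at 0 in some embryo. The count was 108 without control 2 and 91 without control 3, each from the remaining pair, and 90 among genes with every FPKM inside its bounds, which leaves fewer genes. The median SD of log2 narrowed with level, from 0.46 for genes at 1 to 10 FPKM to 0.36 at 10 to 100, 0.26 at 100 to 1000 and 0.21 above 1000 FPKM. Across genes, the log2 values of controls 1 and 2 had a Pearson r of 0.918, controls 1 and 3 of 0.922, and controls 2 and 3 of 0.884. The last pair also had the most genes over 4-fold apart, 170, against 88 and 103. These correlations run over genes of the same libraries and are not independent observations.

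**Figure D3:**
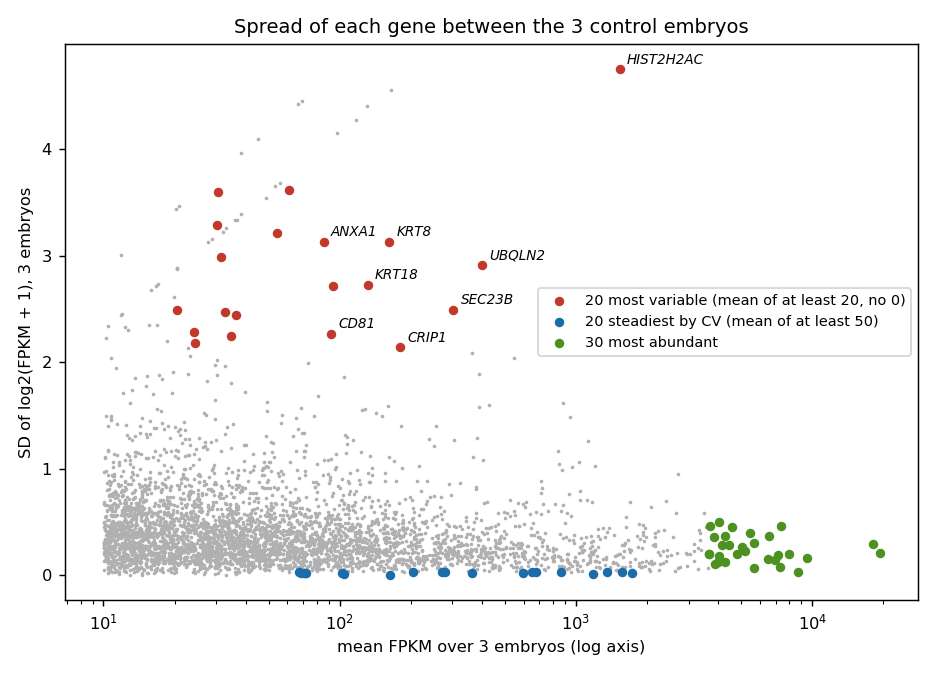
SD of log2(FPKM + 1) between the 3 control embryos against mean FPKM on a log axis, with 1 point per gene with a mean of at least 10 FPKM and the most variable, the steadiest and the most abundant genes in colour. The spread narrows toward high levels, with a median of 0.36 at 10 to 100 FPKM and 0.21 above 1000 FPKM, and HIST2H2AC lies far above other genes of its level.

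The classes differed in how alike they were. Ribosomal proteins had a median SD of log2 of 0.13, mitochondrial ribosomal proteins of 0.21, respiratory chain genes of 0.23 and cell cycle genes of 0.24, all below the 0.32 of all genes. Pluripotency genes were at 0.29. Histones were at 0.58, antioxidant enzymes at 0.59, junction genes at 0.64, trophectoderm markers at 1.80 and keratins at 2.73. The class medians rest on unequal levels: abundant classes have narrower spread among all genes too.

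The 20 steadiest genes among the 1840 with a mean of at least 50 FPKM had a CV of 0.452% to 2.43%, against a median of 19.4%. PDCD6, a calcium-binding adaptor of vesicle transport (chromosome 20, 71916823 to 71932650), was first at 164.7, 163.98 and 163.2 FPKM. RAB21, a GTPase of endosomes (chromosome 5, 1361980 to 1393425), was at 104.97, 103.8 and 104.9 FPKM. Both had nearly the same level in every embryo. The list went across functions. It held ribosomal proteins RPL18, RPL19, RPL17 and RPL9 at means of 1186 to 1733 FPKM, the complex I subunits NDUFS1 and NDUFA10 at 68.8 ± 1.28 FPKM and 279 ± 6.49 FPKM, and the mitochondrial ribosomal protein MRPS18B at 269.8 ± 5.47 FPKM. It also held COPS3 of the COP9 signalosome, CCT4 of the chaperonin that folds actin and tubulin, MAPRE1, which binds growing microtubule ends, RFC5 of the replication clamp loader and MED21 of Mediator. LDHB, GABARAPL2, PIN4, UBE2F and CRK were on it too. LDHB, at 641, 668 and 651 FPKM, was thus both the most abundant glycolysis gene and 1 of the steadiest genes.

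These genes were chosen for the lowest CV among many, so their order is a description. In 15 of the 20 the FPKM lay outside its bounds in some embryo, beside 48.4% of genes with a mean of at least 10 FPKM. With the midpoint of the bounds the same 20 genes had CVs of 1.47% to 24.5%, and 8 stayed under 5%.

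The 20 genes with the widest spread among those with a mean of at least 20 FPKM and above 0 in every embryo differed by 15.95-fold to 346-fold. They were drawn from 2988 genes, and some reached that mean through 1 embryo only. Control 3 was the highest embryo for 10 of them and controls 1 and 2 for 5 each. Over all 4110 genes the highest embryo was control 3 for 35.7%, control 1 for 27.8% and control 2 for 36.5%. In 6 of the 20 the locus differed by over 1.5 times in length between the assemblies, 1 shared a merged locus in some embryo, and 16 had an FPKM outside its bounds. Over all 4110 genes the locus length differed by over 1.5 times in 3.70%, and over the 235 genes past 4-fold in 12.8%. An FPKM lay outside its bounds in some embryo for 48.4% of the 4110 and 61.7% of the 235. The part of the assemblies in these values was not tested.

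The widest gene was a replication-type histone. HIST2H2AC (now H2AC20, chromosome 3, 20770689 to 20771062) was at 1941, 2648 and 6.65 FPKM, so it was abundant in 2 embryos and nearly absent from control 3. Other core histones had the same order. HIST1H2BB was at 1193, 1284 and 176 FPKM and HIST1H2BN at 343, 479 and 90.3 FPKM, both picked out after their values were seen. Of 17 histone genes with a mean of at least 10 FPKM, 12 were lowest in control 3, where 35% of all such genes were lowest, and 12 were highest in control 2, where 36.5% of all were highest. The median difference of control 3 from the mean of the others was -0.93 on the log2 scale, -0.50 from control 1 alone, and -2.16 among members with every FPKM inside its bounds. Replication-type histone messages normally lack a polyA tail, are made in S phase and have many near-identical copies, so their level in a polyA library is uncertain. CDK1, CCNA2 and CCNB1, of the kinase and cyclins of division, were also lowest in control 3, at 224, 198 and 136 FPKM, 161, 117 and 107 FPKM and 444, 433 and 328 FPKM. Of 34 cell cycle genes, 21 were lowest in control 3, with a median difference of -0.21 on the same scale. Of 79 ribosomal protein genes 53 were lowest there, with a median of -0.092, or -0.14 without control 1 and -0.15 after rescaling to equal sums or with the midpoint of the bounds.

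KRT8, KRT18 and several other genes of the outer epithelium were highest in control 3. KRT8 was at 81.4, 4.49 and 400.5 FPKM, 73.1-fold between the extremes. KRT18, which pairs with KRT8 in filaments (chromosome 5, 27171925 to 27175575), was at 22.6, 8.67 and 363 FPKM, 37.7-fold. Both had the order control 2, control 1, control 3. The third keratin with a mean of at least 10 FPKM, KRT10, of epidermal cells, was lowest in control 3, at 58.2, 37.1 and 21.7 FPKM. A second row on another chromosome also carries the symbol KRT8 and is part of its sum. In single-embryo libraries, fewer cells of a type and less RNA per cell cannot be told apart. Of 7 trophectoderm markers with a mean of at least 10 FPKM, 6 were highest in control 3 (background 35.7%) and 5 lowest in control 2 (38.4%). Their median log2 difference of control 3 from the mean of the others was 3.01, and 1.48 from control 1 alone. It was 0.48 for the markers with a mean of at least 50 FPKM and 0.28 with no filter on low values. Besides the keratins and GATA3 they included PTGS2, a prostaglandin synthase, at 2.40, 1.42 and 46.5 FPKM. PTGS2 reached a mean of 10 FPKM only through control 3. DAB2, an endocytic adaptor, was at 152, 76.98 and 151 FPKM, so controls 1 and 3 were alike. TFAP2C, a factor of trophectoderm and pluripotent cells, was at 79.4, 88.9 and 93.99 FPKM and the glucose carrier SLC2A3 at 77.8, 115 and 125 FPKM. CDX2, a later trophectoderm factor, was at 1.73, 0.276 and 2.77 FPKM. EOMES and the row named IFN-TAU were at 0 in every embryo, and the other interferon tau genes share a merged row and are not analysed here.

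**Figure D4:**
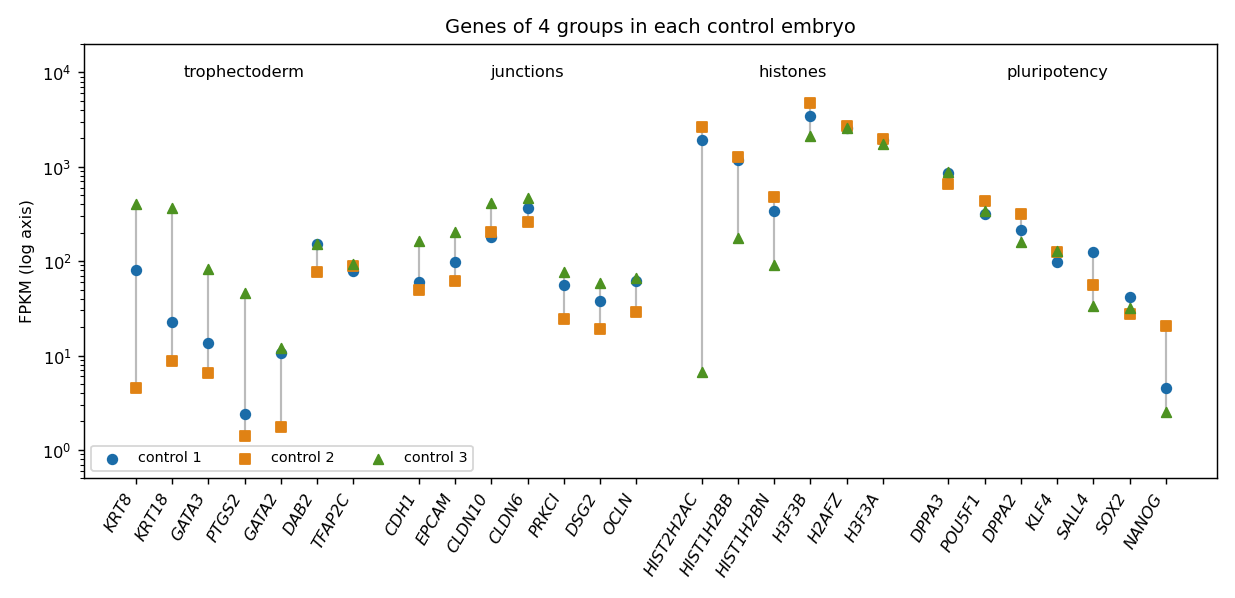
FPKM of trophectoderm, junction, histone and pluripotency genes in each control embryo, on a log axis, with 1 point per embryo and a grey line from the lowest to the highest. KRT8, KRT18 and GATA3 are highest in control 3 and lowest in control 2, HIST2H2AC is lowest in control 3, and POU5F1 and DPPA3 lie close together.

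Genes that hold the outer cells together followed the same order with smaller differences. Of 16 compaction and junction genes with a mean of at least 10 FPKM, 14 were highest in control 3 and 12 lowest in control 2, beside 35.7% and 38.4% of all genes. The median log2 difference of control 3 from the mean of the others was 0.76, but 0.50 from control 1 alone and 0.46 among members with every FPKM inside its bounds. The tight junction protein CLDN6 was the most abundant at 369, 258 and 470.02 FPKM, and CLDN10 was at 182, 203 and 412 FPKM. EPCAM and CDH1, adhesion molecules of epithelial cells, were at 99.1, 62.3 and 204 FPKM and at 60.2, 49.1 and 164 FPKM. Of 10 sodium pump, channel and carrier genes with a mean of at least 10 FPKM, 6 were highest in control 3, beside 35.7% of all genes. Lowest in control 2 were 4 of the 10, near the 38.4% of all genes, and 4 were lowest in control 1. Their median difference of control 3 was 0.58. ATP1B3, a subunit of the sodium pump, was at 564, 539 and 496 FPKM. AQP3, a water channel, was highest in control 2, at 16.6, 151 and 38.9 FPKM.

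Redox enzymes also tended to be high in control 3 and low in control 2. Of 22 with a mean of at least 10 FPKM, 13 were highest in control 3 and 15 lowest in control 2, beside the same 35.7% and 38.4%. Their median difference of control 3 was 0.48, but 0.14 from control 1 alone and 0.18 among members with every FPKM inside its bounds. PRDX1, a peroxiredoxin, was at 193, 87.3 and 1365 FPKM. PRDX6 was at 122, 117 and 513 FPKM, and GPX1, a glutathione peroxidase, was at 90.4, 71.4 and 248 FPKM. SLC25A5, the ADP and ATP carrier of the mitochondrial membrane, was at 1004, 503 and 2089 FPKM.

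In all, 36 genes stood over 4-fold above both other embryos in control 3 (0.876% of the 4110), against 15 in control 1 (0.365%) and 18 in control 2 (0.438%). Those over 4-fold below both others numbered 11 in control 1 (0.268%), 25 in control 2 (0.608%) and 21 in control 3 (0.511%). Of the 36, 33 had a locus of stable length, 31 had no 0 in any embryo, and 15 had every FPKM inside its bounds. Over all 4110 genes 48.4% had an FPKM outside its bounds in some embryo. The filter of 10 FPKM was on the mean of all 3 embryos, so a gene high in 1 embryo could pass through that embryo alone. ANXA1, AIF1L and DNMT3A, among others, passed only through control 3, so the 36 are in part a product of the filter. Named by the rule for variable genes, ANXA1, a membrane-binding annexin, was at 4.62, 5.02 and 248 FPKM, CRIP1, a LIM domain protein, at 78.6, 21.9 and 439 FPKM, CD81, a tetraspanin, at 52.4, 8.35 and 214 FPKM and AIF1L, an actin-bundling protein, at 5.94, 2.56 and 89.8 FPKM. Chosen after their values were seen, S100A10, a partner of annexins, was at 128, 165 and 986 FPKM, CSRP2, another LIM protein, at 142, 50.96 and 896 FPKM, GJB5, a gap junction protein, at 53.6, 48.8 and 238 FPKM and ACLY, which makes acetyl-CoA from citrate, at 21.2, 13.1 and 186 FPKM. In each of these 8 genes controls 1 and 2 were both over 4-fold below control 3. Among DNA methylation genes the de novo enzymes were also highest in control 3, with DNMT3A at 5.78, 4.28 and 27.7 FPKM and DNMT3B at 5.498, 0.0697 and 22.3 FPKM. DNMT3B, at a mean of 9.29 FPKM, did not pass the filter. TRIM28 of the same list, at 52.3, 28.3 and 24.4 FPKM, was lowest in control 3, as were DNMT1 and UHRF1. FN1, fibronectin, listed among primitive endoderm genes, was at 702, 240.2 and 1894 FPKM, while PDGFRA, the receptor that marks that lineage, was at 73.5, 38.8 and 44.8 FPKM.

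The pluripotency genes did not show that order. Of 11 with a mean of at least 10 FPKM, 4 were highest in control 1, 3 in control 2 and 4 in control 3. The class sum was 2017, 1941 and 1918 FPKM. DPPA2 was at 212, 316 and 159 FPKM, KLF4 at 97.6, 124 and 128 FPKM and KLF5 at 112, 78.2 and 142 FPKM. SALL4, a zinc finger factor, was at 125, 55.9 and 33.4 FPKM and PRDM14 at 68.4, 45.9 and 30.6 FPKM, both highest in control 1. NANOG, low in all, was the widest of the list at 4.58, 20.3 and 2.54 FPKM.

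The other variable genes did not form a class. ZC3H14, a polyA-binding protein, was at 0.188, 122 and 61.4 FPKM, and its row in control 1 was marked as a failed estimate by the authors' software. SEC23B, of transport vesicles, was at 21.3, 381 and 506 FPKM, and ECHDC2, a mitochondrial enzyme of the hydratase family, was at 88.8, 1.06 and 0.498 FPKM. RNASE1, a secreted ribonuclease, was at 111, 50.4 and 0.705 FPKM, and in control 3 a row shared with its neighbour BRB was at 414.8 FPKM. For UBQLN2 and NANP the assembled locus differed 91.4 times and 63.3 times in length between embryos, beside 528, 16.99 and 659.5 FPKM and 260.1, 13.4 and 6.68 FPKM. Genes listed at 0 in 1 embryo and abundant in another were not given a fold. CPNE3, a copine, was at 357, 0 and 138 FPKM, CBX5, the heterochromatin protein HP1 alpha, at 207, 0 and 185 FPKM, AHSA1, a cochaperone, at 176, 0 and 117 FPKM and IDH3B, of the tricarboxylic acid cycle, at 90.7, 0 and 68.98 FPKM. GABPA, a transcription factor of mitochondrial genes, was at 95.8, 255 and 0 FPKM. The authors' software marked a row of AHSA1 as not OK and gave the other 4 genes the status OK in every embryo.

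The genes of 4 chromosomes, as groups, stood apart in control 1. For each gene the log2 value of an embryo was set against the mean of the other 2, and the median was taken over the genes with a mean of at least 10 FPKM on each of 30 chromosomes with at least 30 such genes. In control 1 the median was -0.61 on chromosome 15 and -0.65 on chromosome 27, and it was 0.41 on chromosome 14 and 0.32 on chromosome 28. On the other 26 chromosomes the medians of all 3 embryos lay between -0.18 and 0.11. On chromosome 15, 94 of 111 genes were lowest in control 1, and on chromosome 27, 35 of 42, where 26.6% of all genes were lowest in that embryo. On chromosome 14, 72 of 105 genes were highest in control 1, and on chromosome 28, 35 of 62, where 27.8% of all genes were highest. The choice of these 4 chromosomes and of the bound of 0.2 followed the values.

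**Figure D5:**
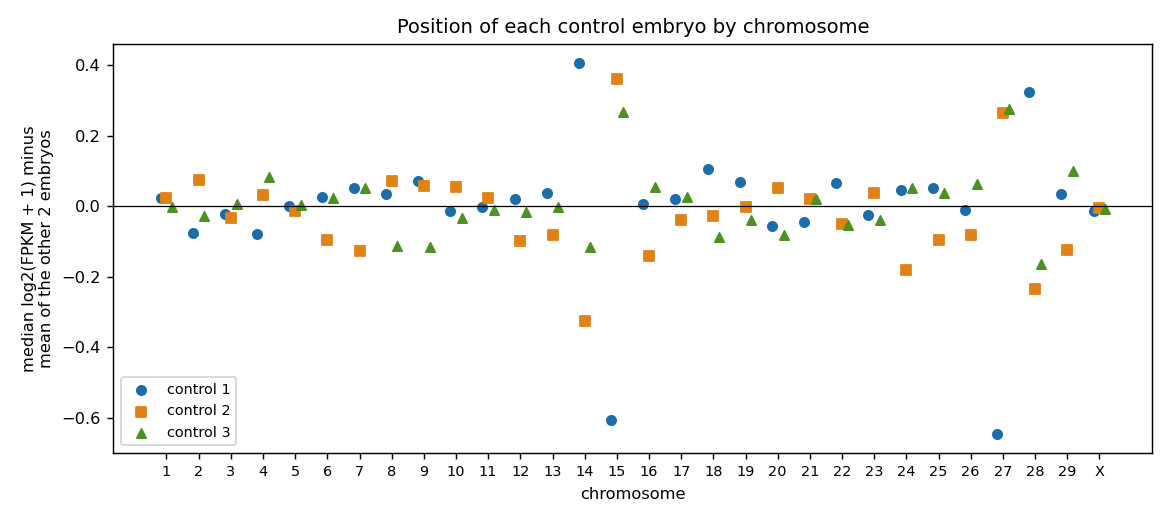
Median over genes of the log2 difference of each control embryo from the mean of the other 2, by chromosome, with 1 point per embryo. In control 1, chromosomes 15 (-0.61) and 27 (-0.65) lie below and chromosomes 14 (0.41) and 28 (0.32) above the other chromosomes.

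The difference was present along each of the 4 chromosomes. With the genes of a chromosome split by position into 3 equal groups, the medians in control 1 were -0.62, -0.63 and -0.51 on chromosome 15 and -0.70, -0.69 and -0.53 on chromosome 27. They were 0.48, 0.36 and 0.46 on chromosome 14 and 0.27, 0.36 and 0.36 on chromosome 28. Among the 5 most abundant genes of each chromosome, most but not all followed it. On chromosome 15 the ribosomal protein RPS25 was at 4822, 6952 and 7859 FPKM, RPS13 at 1961, 3218 and 2556 FPKM and the ATP synthase subunit ATP5L (now ATP5MG) at 2707, 3263 and 5082 FPKM. On chromosome 27 SPCS3, of the signal peptidase, was at 551, 829 and 804 FPKM and VDAC3, a mitochondrial pore, at 102, 202 and 210.3 FPKM, while RPL15 was lowest in control 3, at 811, 1441 and 368 FPKM. On chromosome 14 UQCRB of complex III was at 5785, 3144 and 4791 FPKM and RPS20 at 4521, 2864 and 2588 FPKM, while RPL7, at 2283, 2515 and 1861 FPKM, and NDUFB9 of complex I, at 1555, 1927 and 1302 FPKM, were highest in control 2. On chromosome 28 the splicing factor HNRNPF was at 621, 439 and 464 FPKM and CHCHD1, of the mitochondrial ribosome, at 603, 338 and 365 FPKM, while COA6, a cytochrome c oxidase assembly factor, was highest in control 3, at 498, 341 and 517 FPKM.

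In control 2 the medians of chromosomes 14 and 28 were -0.33 and -0.24, the opposite side of control 1. Against control 3 alone they were -0.095 and -0.069. Without 1 of the other embryos the values of control 1 ran from -0.65 to -0.64 on chromosome 15 and from -0.64 to -0.59 on chromosome 27. They ran from 0.34 to 0.45 on chromosome 14 and from 0.26 to 0.40 on chromosome 28. The 320 genes of these 4 chromosomes had a median SD of log2 of 0.41, against 0.31 for the 3790 genes of the others. Of the 320, 15 differed by over 4-fold, against 220 of the 3790 and 5.72% of all, so such genes were not more frequent there. DNA copy number was not measured in these embryos. XIST, the RNA that silences an X chromosome, was at 12.8, 61.3 and 7.49 FPKM, highest in control 2.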

How the data were processed

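RNA-seq libraries of 3 single control morulae were used, and the 3 treated libraries were left out. The submitters' processing notes name Cufflinks 2.2.1, TopHat2 2.0.14 and the build bosTau8. Neither settings nor the gene models are given in the sources used here. The authors deposited 1 table per library with FPKM values and confidence bounds in FPKM, per the file headers. Each library was assembled on its own, which can join neighbouring genes in 1 embryo and not in another.

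FPKM was summed per gene symbol over rows that name 1 gene, with Python 3.11.15, pandas 2.3.3 and numpy 2.4.6. Rows without a symbol were not used. Symbols in all 3 embryos were kept (13412). Spread is the SD of log2(FPKM + 1) or the CV over 3 embryos, for genes with a mean of at least 10 FPKM. Depth was recovered from unannotated loci of 100 to 300 bases, whose upper bounds step by whole fragments: 99.96% to 99.98% came out whole within 0.05, against 40.5% to 41.5% at that depth divided by 2. Counts per gene were not recovered, so errors are the spread between embryos. No value above 0 was equal between embryos (0%), so none was taken as a duplicate. The scripts were tested on simulated data.

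Named genes are the 5 markers, the 30 highest means, the 20 lowest CVs at a mean of 50 FPKM or more, the 20 largest SDs at 20 FPKM or more, the 10 highest listed at 0, and in each of 40 lists the 3 highest members and the widest. Other list members were picked after their values were seen. Members, lists and rules were chosen with earlier results of these data known. Some genes the rule selects are counted but not named. RefSeq names came from the ARS-UCD2.0 annotation, and positions are those of the deposited bosTau8 rows of control 1, counted from 1. Alternatives changed the scaling, rows, pseudocount, filters, bounds, thresholds, and the chromosomes and embryos included.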

Additional observations from a re-analysis of the deposited data

Results flagged for a closer look

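Rows that name more than 1 gene were outside the description and carried signal in every embryo. They summed to 32315 FPKM in control 1, 40311 FPKM in control 2 and 27818 FPKM in control 3, between 2.95% and 4.51% of the FPKM of rows with a single name. They numbered 176 to 192 per embryo and held 518 symbols. A row of the myosin light chains MYL12A and MYL12B was at 2342, 1975 and 3421 FPKM in controls 1, 2 and 3. RPS15A, joined with ARL6IP1, was at 1800.2, 1758 and 1589 FPKM. ACTG1, the second cytoplasmic actin, joined with a microRNA gene, was at 1234 FPKM in control 1 and 2108 FPKM in control 3. The shares of the ribosomal and cytoskeletal classes leave these rows out.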

How the results depend on the processing

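No called value changed sign between settings. Of the comparisons with another setting, 454 of summary values and 1508 of single genes stayed within a bound. Past it went 52 and 104. The bound was the spread between embryos, or a factor of 1.5 for counts and median log2 differences. Part of this outcome was fixed in advance. Leaving out 1 of 3 embryos cannot move a mean by its own SD, so all 202 genes stayed each time. Keeping only genes with status OK and no merged locus left their values unchanged, so all 198 stayed. Class shares, too, cannot change with rescaling, nor pass their SD when 1 embryo is left out. Rescaling raised the FPKM of every single gene, since the common sum was above that of each embryo. Genes with a small SD could pass the bound by this alone, and rescaling gave 54 of the 104. No paired analysis was possible because only 1 group is described. The alternative without genes of short proteins was not run, since no protein table was used here. Read from the midpoint of the bounds, the share of the first 100 genes was 37.8%, of ribosomal proteins 13.8%, the respiratory chain 10.4%, the cytoskeleton 6.69%, the spliceosome 2.80%, the mitochondrial ribosome 2.03%, the proteasome 1.65%, endoplasmic reticulum genes 1.34%, lysosome genes 1.003%, methionine and polyamine genes 0.437% and lipid genes 0.414%, and the ribosomal difference of control 3 was -0.15. That difference was also -0.15 after rescaling every embryo to the same sum. With the highest row of each symbol the mitochondrial ribosome held 2.02%. The detection count was 3458 at 10 FPKM. With no filter on low values the median SD of log2 was 0.24 and 666 of 13412 genes passed 4-fold, against 235 of 4110. The differences of control 3 were then 0.70 for keratins and 0.28 for trophectoderm markers, and that of control 2 for translation factors 0.068. On chromosomes 15, 27, 14 and 28 those of control 1 were -0.10, -0.25, 0.14 and 0.045, and on chromosomes 14 and 28 those of control 2 were -0.095 and 0. This setting adds genes near 0 FPKM. At a mean of 50 FPKM the median SD was 0.28 and 81 of 1840 genes passed 4-fold. Trophectoderm markers were at 0.48, cell cycle genes at -0.36 and chromosome 28 in control 2 at -0.10. With 1 row per symbol and a locus of stable length keratins were at 1.76, since KRT8 has 2 rows and was left out. With every FPKM inside its bounds 90 genes passed 4-fold, from the fewer genes left. The differences were then 0.46 for junctions, 0.18 for antioxidants, -2.16 for histones, 0.028 for translation factors and -0.084 for chromosome 28 in control 2. The last 2 settings, the midpoint and a further setting without chromosomes 14, 15, 27 and 28 were chosen after seeing the data. Leaving out 1 embryo gave 91 to 181 genes over 4-fold and a median SD of 0.23 to 0.31. A pair cannot lie further apart for a gene than the extremes of all 3 embryos, so a lower count is in part built in. SDs of 2 and of 3 values are not directly comparable. It gave differences of control 3 of 2.28 to 5.24 for keratins, 1.48 to 3.49 for trophectoderm markers, 0.50 to 1.09 for junctions, 0.14 to 0.65 for antioxidants, -1.14 to -0.50 for histones and -0.14 to -0.10 for ribosomal proteins. In control 2 it gave 0.12 to 0.17 for translation factors, -0.45 to -0.095 for chromosome 14 and -0.40 to -0.069 for chromosome 28. Where no construction is named, the cause was not tested. Counts per gene were not recovered, so what depth limits was not measured, and n is 3 embryos.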
